A study of Mus musculus with 10 samples.

Results

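The genes examined encode the chemosensory receptors of the nose, the vomeronasal organ and the tongue: odorant receptors (Olfr), vomeronasal receptors of both families (Vmn1r and Vmn2r) and sweet, umami and bitter taste receptors (Tas1r and Tas2r). They were chosen by gene symbol from the autosomal protein-coding genes of a RefSeq gene table, and a gene counted as measured where at least 3 cytosine positions lay within 1000 bp of one of its ends. Of 1494 such receptor genes, 96 were measured (6.43%), which were 79 of 1104 Olfr, 9 of 230 Vmn1r, 4 of 122 Vmn2r, all 3 Tas1r and 1 of 35 Tas2r genes. The level of a gene, in percent, is the share of methylated calls among all calls at whichever end had more measured positions. DNA methylation was measured by reduced representation bisulfite sequencing, which samples the CpG-rich part of the genome, in 10 samples of Mus musculus embryos at embryonic day 7.5. The titles name 5 control and 5 arsenic samples. The sources used here give no strain, sex, arsenic dose or route, and no number of embryos per sample. The extraction protocol of these embryo samples also holds a sentence on sperm DNA, which the sources do not explain.

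The table of counts carries 10 sets of columns numbered 1 to 10, and 0 of them could be tied to 1 sample by name. No comparison of arsenic with control was therefore made, and each set is called a library column. Where values over the columns are given, they are the lowest, the median and the highest column. No test between groups was made, and a difference between the groups would lie inside these ranges without being visible. Every position had at least 10 reads in every column, and coverage summed over positions ranged from 73509873 to 127743904 per column. The 831 positions at the ends of receptor genes held 361206 calls, and their median coverage ranged from 24 reads in column 3 to 42 in column 1. Exactly 2 methylated calls at a position in a column were found 188 times, exactly 1 call 124 times and exactly 3 calls 84 times. Whether a molecule was called more than once was not tested. If so, the call counts and the minimum of 10 reads stand for fewer molecules, and the intervals below are too narrow. Only DNA methylation was measured, so the labelled tissue could not be checked against expression of marker genes.

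Odorant receptors are G protein-coupled receptors of olfactory sensory neurons, each of which is known to express a single receptor gene from a single allele. The genes lie in large clusters, most have a coding region in 1 exon, and their promoters are known to hold few CpG dinucleotides. Vomeronasal receptors detect pheromones and related cues, and taste receptors act in the taste cells of the tongue. The organs in which these receptors work form later than the stage sampled here.

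The sequences around the annotated starts show which CpGs some of these genes offer to the assay. RefSeq promoter entries of GRCm38.p6, the assembly to which mm10 corresponds, run from 250 bases before to 50 bases after a gene's start, and 80 of the 96 genes had one. In 12 of them, 52 measured positions fell inside the 300 bases. The 6 entries with 4 or more measured positions are shown 5′ to 3′, with each CpG that was measured on at least 1 strand in capitals and everything else in lower case. They were chosen by the number of positions, in which both strands of a CpG count separately, and hold 2 to 6 measured CpGs each. In 70 of the 96 genes the annotated span is a multiple of 3 bases long, as a coding region alone is, so the annotated start can be that of the coding region and not of the transcript.
Olfr281: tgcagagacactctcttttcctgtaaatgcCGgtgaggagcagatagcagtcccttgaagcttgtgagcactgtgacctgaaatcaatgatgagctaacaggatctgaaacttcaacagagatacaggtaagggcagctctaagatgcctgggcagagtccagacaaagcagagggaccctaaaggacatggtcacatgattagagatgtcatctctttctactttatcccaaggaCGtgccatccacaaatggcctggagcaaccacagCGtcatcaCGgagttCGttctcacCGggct
Olfr1394: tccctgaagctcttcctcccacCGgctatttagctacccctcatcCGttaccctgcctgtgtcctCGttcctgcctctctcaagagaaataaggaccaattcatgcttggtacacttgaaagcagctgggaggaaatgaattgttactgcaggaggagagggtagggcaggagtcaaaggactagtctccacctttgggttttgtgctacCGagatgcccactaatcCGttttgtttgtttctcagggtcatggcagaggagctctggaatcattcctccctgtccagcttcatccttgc
Olfr750: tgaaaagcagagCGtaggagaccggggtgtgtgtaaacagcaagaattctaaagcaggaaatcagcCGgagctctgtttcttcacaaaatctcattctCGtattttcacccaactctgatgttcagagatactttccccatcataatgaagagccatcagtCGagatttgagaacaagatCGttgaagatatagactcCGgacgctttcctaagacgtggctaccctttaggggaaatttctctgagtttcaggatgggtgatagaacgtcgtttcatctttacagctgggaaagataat
Olfr976: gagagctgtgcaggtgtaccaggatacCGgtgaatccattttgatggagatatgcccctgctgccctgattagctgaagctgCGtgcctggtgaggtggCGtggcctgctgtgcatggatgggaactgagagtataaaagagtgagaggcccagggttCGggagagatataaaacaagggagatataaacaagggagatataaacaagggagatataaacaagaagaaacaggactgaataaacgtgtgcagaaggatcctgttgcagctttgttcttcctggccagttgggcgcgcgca
Olfr15: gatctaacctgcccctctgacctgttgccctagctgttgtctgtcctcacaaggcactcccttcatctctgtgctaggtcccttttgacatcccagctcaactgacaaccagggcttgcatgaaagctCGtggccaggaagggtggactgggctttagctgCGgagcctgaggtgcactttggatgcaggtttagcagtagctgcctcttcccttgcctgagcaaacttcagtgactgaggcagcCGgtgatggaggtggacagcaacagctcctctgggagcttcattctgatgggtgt
Olfr155: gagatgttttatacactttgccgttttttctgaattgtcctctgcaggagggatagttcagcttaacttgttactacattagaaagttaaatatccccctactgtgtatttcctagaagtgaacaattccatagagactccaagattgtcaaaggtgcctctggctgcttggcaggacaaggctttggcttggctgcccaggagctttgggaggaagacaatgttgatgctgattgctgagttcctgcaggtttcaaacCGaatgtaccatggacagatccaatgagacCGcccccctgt
Olfr281 lies at chr15:98456062-98456361 on the plus strand, Olfr1394 at chr11:49159766-49160065 on the plus strand and Olfr750 at chr14:51071393-51071692 on the minus strand. Olfr976 is at chr9:39960995-39961294 on the minus strand, Olfr15 at chr16:3838725-3839024 on the plus strand and Olfr155 at chr4:43854042-43854341 on the plus strand. The 300 bases of Olfr281, Olfr1394, Olfr15 and Olfr155 hold 6, 5, 3 and 3 CpGs, and those of Olfr750 and Olfr976 hold 11 and 8. Each holds more than the median of 2 over the 80 entries, so the printed sequences are CpG-richer than most.

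These starts were partly methylated. The Olfr281 promoter had a level of 56.6% over 10 positions, with 46.9%, 58.1% and 67.2% as the lowest, median and highest column. Its 6 CpGs ran from 47.4% at base 237, counted from the 5′ end of the printed sequence, to 62.8% at base 31. In Olfr1394 the level was 52.2% over 9 positions (columns 44.2%, 51.0% and 61.7%), with the lowest values, 42.6% and 43.5%, on both strands of the CpG at base 228. Olfr750 had 50.3% over 9 positions (columns 37.7%, 50.1% and 61.0%), and its CpG at base 162 stood below the others at 35.6% on the plus strand and 38.2% on the minus strand. At the other measured CpGs of Olfr750 levels lay between 48.4% and 62.8%. Olfr976 had the highest promoter level, 62.5% over 4 positions (columns 44.4%, 63.0% and 78.8%). Olfr15 and Olfr155 had the lower levels of the 6, 35.4% (columns 25.7%, 35.6% and 45.3%) and 33.8% (columns 16.4%, 32.8% and 43.8%). The column range of Olfr155 overlapped with that of Olfr750 but with none of Olfr281, Olfr1394 and Olfr976, and the range of Olfr15 overlapped with all but that of Olfr281. Over all 12 promoters the levels ran from 33.8% to 62.5% with a median of 46.9%, and 0 were under 20%. None of these promoters belongs to the genes described below as low, and the share among promoters of other genes was not computed.

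Receptor promoters differed from those of other genes in CpG content, which sets what the assay can see. A measured receptor gene had a median of 2 CG dinucleotides per 300 bases (80 entries), a receptor gene with fewer than 3 measured positions a median of 1 (1212 entries), and other protein-coding genes a median of 16 (15165 entries). The letters CCGG, which read the same on both strands, contain CG and are the cutting site of MspI, the enzyme usual in this assay, occurred in 25.0%, 4.79% and 68.1% of these entries in the same order. At either end, 90.7% of the 1494 receptor genes had no measured position, against 23.5% of 19171 other protein-coding genes, of which 73.8% reached 3 positions. The values below thus describe a small and CpG-richer share of the families.

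The ends of receptor genes were at intermediate methylation almost throughout. The median gene level was 51.5%, with quartiles at 44.5% and 57.5%, and the median over genes ran from 48.2% to 53.8% over the columns. A level between 20 and 80% was found in 91 of the 96 genes (94.8%), against 23.1% of all 14236 measured autosomal protein-coding genes. Under 20% lay 4 receptor genes (4.17%), against 75.6% of all genes, and above 80% lay 1 (1.04%), against 1.29%. Within the middle class, 71 genes stood between 40 and 65%, 12 between 20 and 40%, and the 9 genes over 65% include the one above 80%. At the limit of 3 positions, the 11 genes with exactly 3 positions ran from 45.7% to 71.7% with a median of 52.8%, and the 29 genes with 2 positions from 30.7% to 67.2% with a median of 51.5%.

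**Figure D1:**
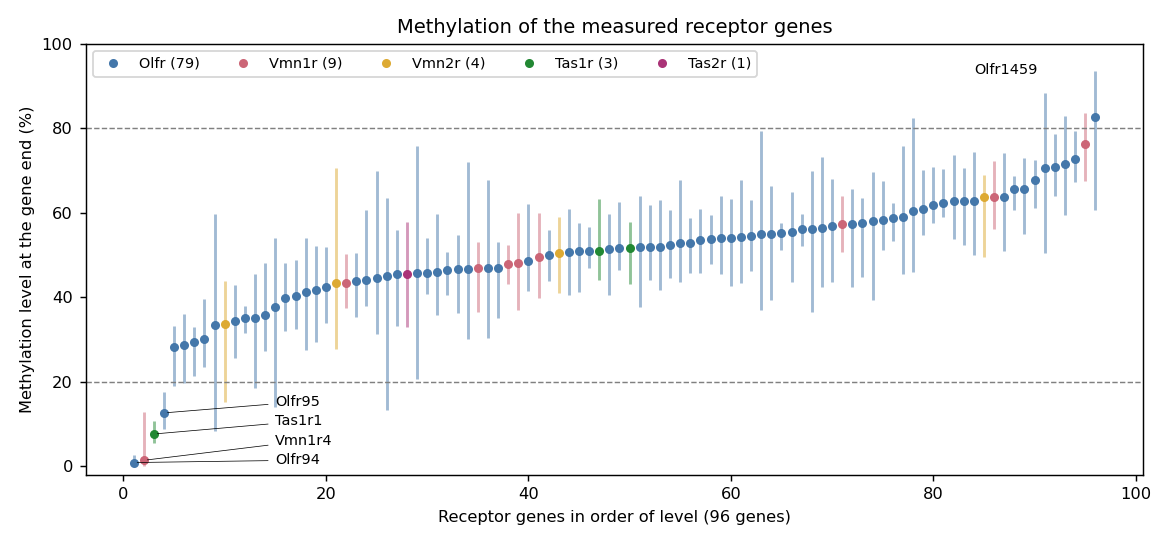
Methylation level in percent of each of the 96 measured receptor genes, in order of level and coloured by family, with calls of all 10 library columns summed and a bar from the lowest to the highest column. Dashed lines mark 20 and 80%. Most genes stand between 40 and 65%, and the 4 genes under 20% are Olfr94, Vmn1r4, Tas1r1 and Olfr95.

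Among other genes the level was lower the more positions were measured at the gene end, and the medians of receptor genes did not follow this order. With 3 to 5 positions the median level was 48.1% in 44 receptor genes and 49.6% in 793 other genes, and 0 receptor genes but 21.2% of the others were under 20%. With 6 to 10 positions the medians were 54.2% in 31 receptor genes and 45.0% in 1471 others, of which 33.7% were under 20%, again against 0 receptor genes. The medians parted with 11 to 20 positions, at 50.7% in 13 receptor genes and 11.2% in 2242 others. Over 20 positions, 5 of 8 receptor genes had a level from 20% up, with a median of 53.1% over all 8, while 91.3% of 9634 other genes were under 20% and their median was 1.74%. Receptor genes in the last class are few, and 3 of these 8 are among the genes described below as low.

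**Figure D2:**
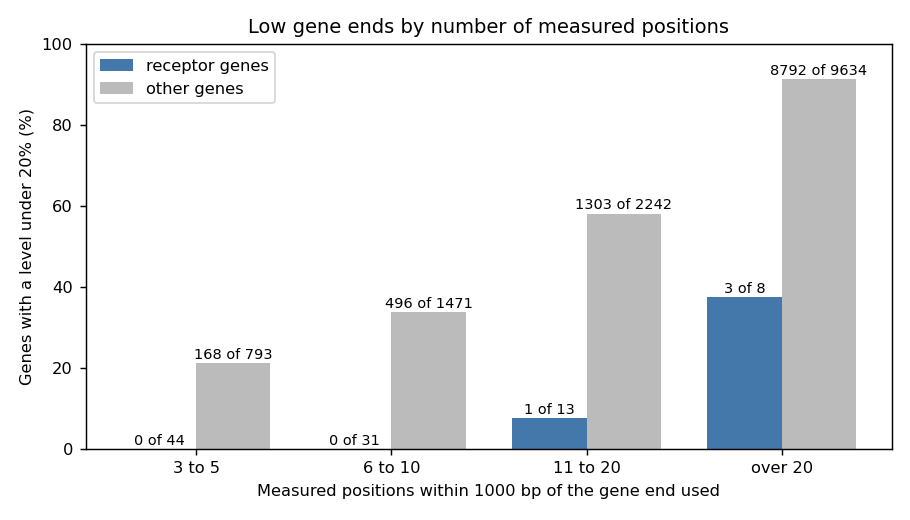
Share of genes with a level under 20% (vertical axis, percent) by number of measured positions at the gene end, for receptor genes and for other autosomal protein-coding genes. The share of other genes rises from 21.2% to 91.3%, and that of receptor genes from 0 to 37.5%.

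Single positions showed the same. Of 831 positions at receptor gene ends, 660 (79.4%) stood between 20 and 80%, 140 (16.8%) below and 31 (3.73%) above, whereas 88.9% of 518030 positions at the ends of other protein-coding genes were under 20%. Their mean was 46.3%, against 7.59% at other gene ends and 52.9% at 688097 autosomal positions that lay outside protein-coding genes and away from their ends. Levels were lower in the densest stretches, which at receptor gene ends rests on the 4 low genes. Where more than 15 measured positions lay within 100 bp, 78 of 98 receptor positions were under 20% and the mean was 15.7%, against a mean of 2.91% at 323884 such positions of other gene ends. All 78 belonged to the 4 low genes, and the other 20 positions had a mean of 73.2%, a split by level that is a description only. With at most 5 positions within 100 bp the mean was 52.1% at 429 receptor positions and 29.2% at 36473 positions of other gene ends. On the 80 genes with a strand in the promoter table, the median position stood at 41.9% among 126 upstream of the gene, 52.5% among 460 inside it and 50.7% among 163 downstream. This order rests on the low genes, without which the medians were 49.8%, 54.5% and 60.1%, with the downstream positions highest. The end used was the 5′ end in 38 of these 80 genes and the 3′ end in 42. Where both ends had equally many positions, as in Olfr94 with 23 at each, the end at the lower coordinate was taken. In 72 of the 96 genes the annotated span is shorter than 1500 bp, so that the windows of both ends overlap inside the gene, and in 50 genes all the positions used lay inside the gene. The gene table gives no exons, so exonic, intronic and untranslated positions were not told apart. Levels on both strands of the same CpG, available for 201 CpGs, differed by a median of 3.10 percentage points. Some differed far more. In Olfr477 the plus and minus strands had 46.9% and 4.76% at one CpG and 2.95% and 59.5% at the next. In Vmn1r26 they had 74.3% and 10.4%, and 2.24% and 77.2%. The cause was not tested.

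The levels of the families overlapped. The Olfr genes had a median of 52.0% (quartiles 44.8% and 57.8%) and column medians of 48.5%, 50.6% and 54.2%. Vmn1r genes, the smaller type of vomeronasal receptor, had a median of 48.3%, with column medians of 43.4%, 50.1% and 59.9%. Vmn2r genes, whose products carry a large extracellular domain, ran from 33.8% in Vmn2r29 to 63.7% in Vmn2r104 with a median of 47.0% and column medians of 36.3%, 46.7% and 56.0%. With 9 and 4 genes the vomeronasal medians rest on few values. Leaving aside Vmn1r4, described below, the Vmn1r genes ran from Vmn1r8 at 43.5% over 4 positions (columns 37.6%, 42.8% and 50.3%) to Vmn1r1 at 76.4%. Vmn1r65 had the most positions of these, 8, all inside the gene, and a level of 57.3% (columns 50.7%, 58.0% and 64.1%). Vmn2r29, at chr7:7212996-7278289, was read at 5 positions inside the gene near its 5′ end (columns 15.1%, 36.0% and 43.8%), and Vmn2r104 at 5 positions outside the gene near its 5′ end (columns 49.5%, 63.5% and 69.0%). The column ranges of these 2 genes did not overlap, but they are the lowest and highest of the 4 Vmn2r genes, so this is a description only. Among taste receptors, Tas1r2, the sweet receptor subunit, had 50.9% over 27 positions at its 3′ end, with 44.0%, 50.1% and 63.4% as the lowest, median and highest column. Tas1r3, the subunit shared by the sweet and umami receptors, had 51.7% over 7 positions at its 3′ end and 71.3% over 5 positions at its 5′ end. Its 3′ end lies 35 bp from the end of Dvl1. Tas2r143, a bitter receptor and the measured one of its family, had 45.7% over 3 positions (columns 32.9%, 47.5% and 57.8%).

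A pair of well-known odorant receptors, chosen after their values were seen, stood near the middle of the distribution. Olfr73, the eugenol receptor, had 54.5% over 5 positions (columns 46.2%, 54.9% and 63.0%). Olfr17, the P2 receptor whose axons have been traced to single glomeruli, had 47.0% over 4 positions (columns 30.3%, 45.5% and 67.8%).

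Receptor genes lie in clusters, here defined as receptor genes separated by at most 1000000 bp, and most of those described had a summed level, over the calls of all their genes, above 50%. Of 74 clusters, 37 held a measured gene and 12 held at least 3, with 63 of the 96 genes. The median gene level of these 12 ran from 44.4% to 60.9%. The large cluster of class I receptors, the fish-like odorant receptors, on chromosome 7 from 102476773 to 105369317 (mm10) had 13 measured of 126 genes and a summed level of 57.1%, with 54.5%, 56.4% and 61.8% as the lowest, median and highest column. Its genes ran from Olfr658 at 34.5% to Olfr648 at 70.8%. The largest cluster, on chromosome 2 from 85330967 to 90401674, had only 7 measured of 222 genes and a summed level of 50.1% (columns 44.8%, 49.1% and 56.0%), from Olfr1033 at 28.8% to Olfr1156 at 61.9%. On chromosome 11 from 58454915 to 59614225, 8 of 24 genes gave 53.0% (columns 47.9%, 53.1% and 57.7%), from Olfr222 at 37.8% to Olfr323 at 65.7%.

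Among these 12, the cluster with the most positions was the small one on chromosome 15 from 98186011 to 98498406, with 5 of 9 genes and 105 positions. Its summed level was 60.0%, and its columns of 57.6%, 59.9% and 62.2% were close together. Olfr283, at chr15:98378096-98379197, had 65.7% over 40 positions and 17638 calls, with columns of 60.8%, 66.6% and 68.8%. Olfr281, whose promoter is printed above, had 55.3% over 27 positions (95% Wilson interval of the summed calls 54.4 to 56.2%), with columns of 51.2%, 55.5% and 57.7%. Olfr284 had 62.3% over 25 positions (columns 59.0%, 61.5% and 70.5%), and Olfr279 the lowest level of the cluster, 53.9%. The columns of Olfr283 lay above those of Olfr281 without overlap. By summed calls, the highest of the 12 were on chromosome 19 from 11828077 to 13919972, at 65.9% (columns 52.5%, 67.3% and 74.2%, Olfr1420 at 52.5% to Olfr1459 at 82.6%), and on chromosome 4 from 43695000 to 43855463, at 62.9% (columns 57.8%, 61.8% and 68.8%, Olfr155 at 35.2% to Olfr71 at 72.8%), each with 3 measured genes. By the median gene they stood lower, at 52.8% and 50.1%, and the cluster on chromosome 11 from 49112777 to 49564858 was then the highest at 60.9%.

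The lowest summed level of the 12 was that of the cluster on chromosome 6 from 56923914 to 58472878, with 4 of 28 genes and 23.5% (columns 16.6%, 25.7% and 34.9%), which runs from Vmn1r4 at 1.43% to Vmn1r7 at 63.8%. Its median gene stood at 45.7%. Of its 40 positions, 29 are those of Vmn1r4, which lie outside that gene and inside Nt5c3, as described below. The cluster on chromosome 7 from 106677534 to 108894405 had 43.9% (columns 37.8%, 42.2% and 58.2%), from Olfr477 at 29.3% to Olfr703 at 71.7%. The level of Olfr477 averages strands that differ widely, as given above. The other 4 clusters had summed levels from 51.4% to 59.2%: Vmn2r92 at 43.5% to Vmn2r104 at 63.7% on chromosome 17, Vmn2r29 at 33.8% to Olfr1344 at 58.7% and Olfr523 at 52.0% to Olfr522 at 58.4% on chromosome 7, and Olfr1394 at 51.9% to Olfr1395 at 70.6% on chromosome 11. Genes of a cluster share their neighbourhood and are not independent values.

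**Figure D3:**
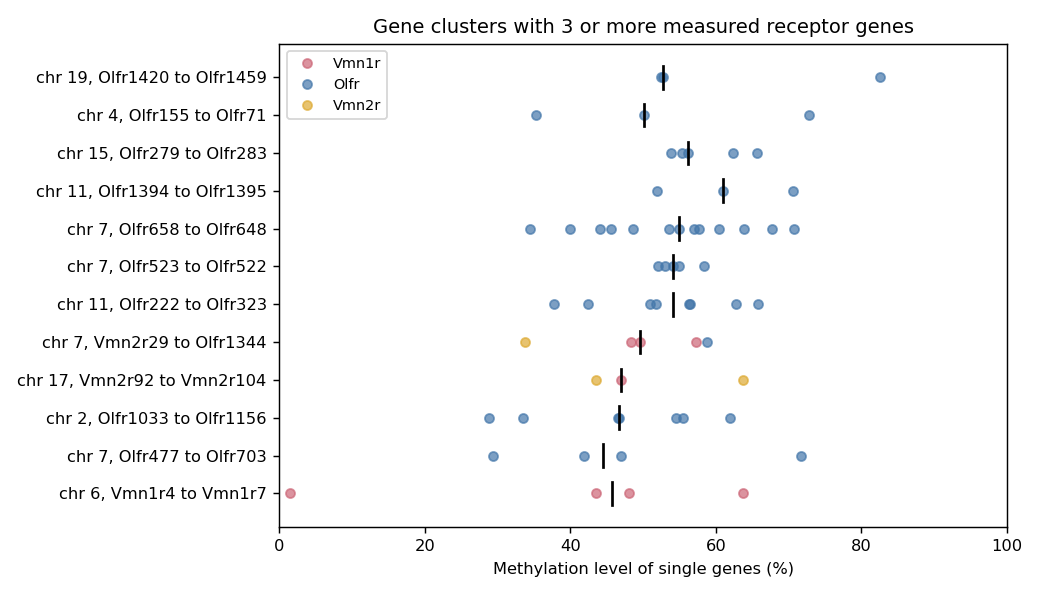
Methylation level in percent of the measured genes (points, coloured by family) in the 12 clusters with at least 3 of them, named by their lowest and highest gene, with a black bar at the median gene. Medians run from 44.4% to 60.9% and summed levels from 23.5% to 65.9%. Vmn1r4, read at positions inside the gene Nt5c3, stands apart from the other genes of its cluster.

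The 4 genes under 20% were low in every column. Olfr94, at chr17:37196806-37197966 on the minus strand, had 0.897% (interval 0.697 to 1.15%, 6691 calls), with 0, 0.769% and 2.64% as the lowest, median and highest column. Its 23 positions all lay inside the gene, in 104 bp from 37197207 to 37197310, and so describe a short CpG-dense stretch of the gene body. Olfr95, at chr17:37210913-37211851 and 12947 bp away, had 12.7% (interval 11.5 to 13.9%, 3193 calls), with columns of 8.78%, 13.4% and 17.7%. Its 14 positions also lay inside the gene, and they ran from 4.19% to 28.3%. The columns of both genes did not overlap. They were the 2 measured genes of a cluster of 46 on chromosome 17 in the region of the major histocompatibility complex, so no other receptor gene there could be set beside them. Within 15000 bp beyond the nearest measured position at lower coordinates, 21088 bp away, 40 positions ran from 29.9% to 70.2%. Their summed level was 53.8%, and they lie downstream of both genes, which are on the minus strand. On the other side the nearest measured position was 58592 bp away, and the end of H2-M3, a gene of the complex, had 7.96% over 13 positions.

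Vmn1r4 and Tas1r1 were low at positions that lie at the end of another gene. Vmn1r4, at chr6:56923914-56957608, had 1.43% (interval 1.18 to 1.72%, 7362 calls) over 29 positions, none of them inside its span. These positions lie 71 to 286 bp outside it and inside Nt5c3, a nucleotidase gene, whose end holds the same 29 positions. The start of Vmn1r4 in the promoter table is 32599 bp away from that end. Its columns were 0.166%, 0.693% and 12.8%, the highest being column 9, and without that column the level was 0.653%. In column 9, 22 of the 29 positions had exactly 2 methylated calls among 12 to 14 reads, 4 had 4 among 25 to 28 and 3 had 0.

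Tas1r1, the umami receptor subunit at chr4:152027914-152038490 on the minus strand, had 7.66% over 65 positions (interval 7.28 to 8.05%, 18164 calls; columns 5.42%, 7.21% and 10.7%), and the zinc finger gene Zbtb48, whose end is 239 bp away, had the same 65 positions. The 51 positions outside Tas1r1 had 0.759% (interval 0.625 to 0.921%; columns 0.131%, 0.507% and 2.24%), and the 14 inside it 26.6% (interval 25.3 to 27.8%; columns 19.0%, 27.5% and 32.4%). All 65 positions, those inside Tas1r1 included, lie within 1000 bp of another gene's end. The 5′ end of Tas1r1, which the rule did not use, was divided by nearness to another gene's end and not by the gene's span. There 12 positions near the end of Nol9, 771 bp away, had 0.567%, and the other 5 positions had 61.4%. With positions within 1000 bp of a non-receptor gene's end left out, 2 receptor genes under 20% remained, Olfr94 and Olfr95. The span of Olfr94 also lies near another gene, 705 bp from the end of Ubd, whose own ends had no measured position.

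**Figure D4:**
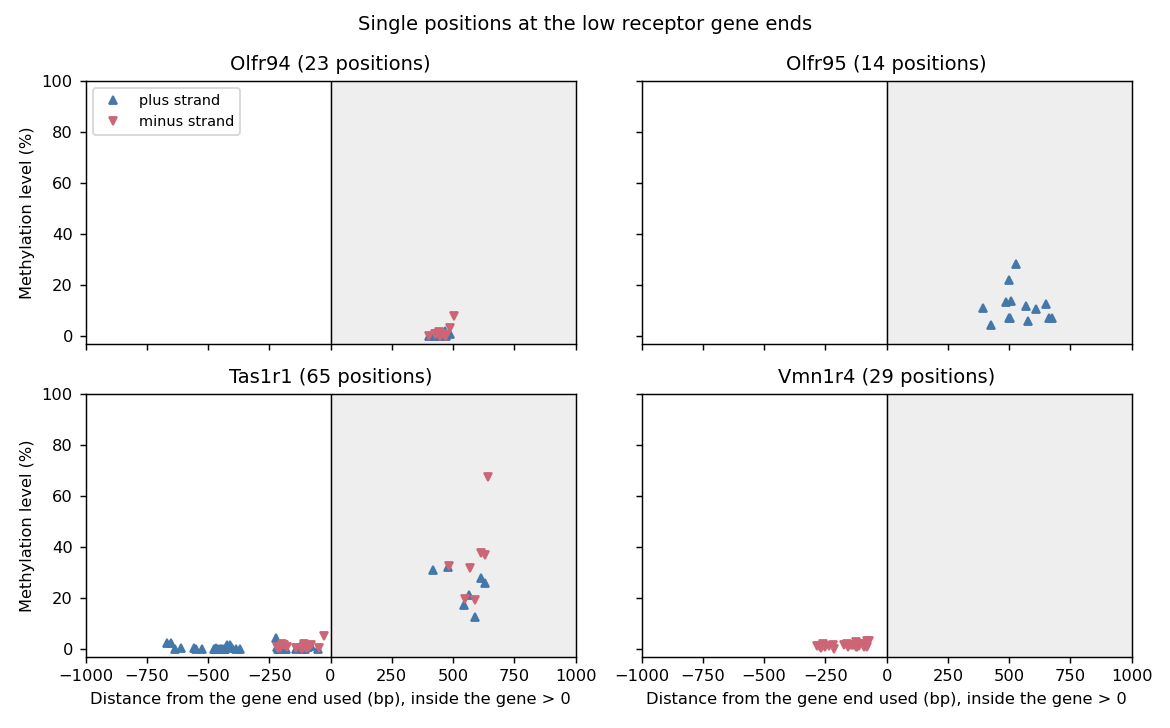
Methylation level in percent at single positions of Olfr94, Olfr95, Tas1r1 and Vmn1r4 by distance in bp from the gene end used, with the inside of the gene shaded and the strand of the position given by the marker. In Tas1r1 the level is 0.759% outside the gene and 26.6% inside it, with no measured position between 27 bp outside and 419 bp inside. In Vmn1r4 all the positions lie outside the gene.

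A group of 12 genes stood between 20 and 40%, and those of them not named for another reason were chosen after their values were seen. Olfr1342 had 28.3% over 6 positions inside the gene near its 5′ end (columns 19.1%, 28.8% and 33.3%). At its 3′ end, which was not used, Olfr1342 had 75.9% over 4 positions. Olfr1033 had 28.8% over 11 positions (columns 19.7%, 29.1% and 36.1%), and Olfr1358, at chr10:78498183-78521283, had 30.1% over 13 positions near its 3′ end (columns 23.4%, 29.5% and 39.6%). Olfr368, at chr2:37331749-37332732, was among the narrowest of all, with 35.2% over 14 positions near its 5′ end and columns of 31.5%, 35.4% and 38.1%. At the end used, Olfr368 therefore stood below the median receptor gene in all 10 columns. Its 3′ end had 48.1% over 7 positions. Olfr1132 had 33.5% over 4 positions and columns as far apart as 8.33% and 59.7%, so its level is poorly fixed. Olfr155 and Olfr15, whose promoters are printed above, had 35.2% and 35.7% over 5 positions each at their 5′ ends.

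The highest level was that of Olfr1459, at chr19:13145734-13146657, with 82.6% (interval 81.2 to 83.9%) over 9 positions, none inside the gene. Its columns were 60.6%, 84.6% and 93.7%. Vmn1r1 followed at 76.4% (columns 67.6%, 75.0% and 83.5%), and Olfr71 at 72.8% over 22 positions (columns 67.3%, 73.1% and 79.5%). Olfr703 had 71.7% over 3 positions (columns 59.4%, 74.0% and 83.1%) and Olfr648 had 70.8% over 9 positions (columns 64.1%, 70.1% and 78.6%). The column ranges of these 5 genes overlap, which does not fix their order within single columns. The 60.6% of Olfr1459 was in column 8, and its other columns ran from 77.2 to 93.7%. Outside column 8, Olfr1459 stood above Olfr648 in every column.

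Column by column, the median receptor level was highest in columns 9 and 1, at 53.8% and 53.7%, and lowest in columns 8 and 5, at 48.2% and 48.5%. The mean of positions outside protein-coding genes was 54.3% and 55.3% in the first pair and 51.5% and 52.4% in the second. Of the 96 genes, 26 had their highest value in column 9, and 16 their lowest in column 6. In column 10 the outside mean was 54.2% and the receptor median 50.2%. Coverage differed between columns too, and its part in these differences was not tested. Control and arsenic columns cannot be told apart. The range over columns within a gene, a median of 18.3 percentage points over all 96 genes, narrowed with the number of positions: without the low genes, it was 22.8 points with 3 to 5 positions, 18.0 with 6 to 10, 16.4 with 11 to 20 and 11.5 with more than 20. Among genes with at least 10 positions it was widest in Olfr525 (42.6%, 55.3% and 63.4% as lowest, median and highest column), Olfr750 (40.5%, 50.8% and 61.0%) and Olfr225 (53.8%, 62.0% and 73.7%). In 85 of the 96 genes no column was under 20%, in 7 at least 1 column was though the gene as a whole was not, and 21 genes were above 50% in all 10 columns. Neither these counts nor those of genes highest or lowest in a column were made for other genes, so they describe the receptor genes without a comparison.

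**Figure D5:**
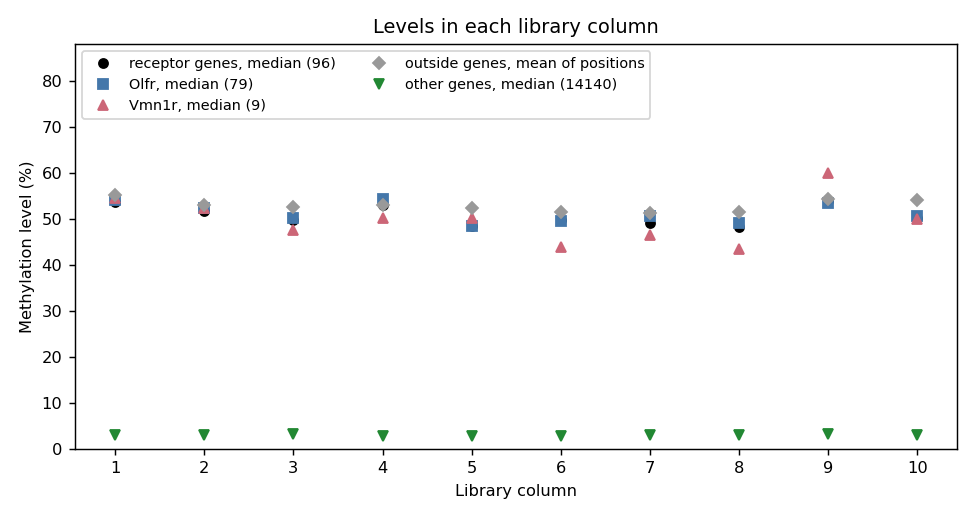
Methylation level in percent in each of the 10 library columns, as the median of the receptor genes, of the Olfr and Vmn1r genes and of other protein-coding genes, and as the mean of positions outside genes. The receptor medians lie between 48.2% and 53.8%, and the columns are not assigned to control or arsenic.

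Genes that act downstream of or beside the receptors were measured in the same way. Of 38 listed signalling and regulatory genes, 35 were measured, with 24 under 20%, 11 between 20 and 80% and a median of 6.63%. The share under 20% was near the 75.6% of all measured genes. Of 20 measured olfactory genes 14 were under 20%, among them Cnga4, a channel subunit, at 0.982%, Adcy3, the adenylyl cyclase of olfactory neurons, at 2.33% and Gnal, the G protein alpha subunit, at 9.85%. The other 6 were Ebf1, a transcription factor, at 44.0%, Ldb1 at 60.9% over 4 positions, Omp, a marker of mature olfactory neurons, at 56.1% (columns 51.2%, 56.2% and 63.3%), Rtp2, a receptor transporter, at 55.9%, the chloride channel Ano2 at 66.2% and the channel subunit Cngb1 at 64.8%. Of 6 vomeronasal genes 5 were under 20%, such as Gnao1 at 1.18% and Gnai2 at 10.5%, and Trpc2, the transduction channel of these neurons, had 78.3% (columns 70.4%, 79.1% and 85.4%). Of 9 measured taste genes 5 were under 20%, including Itpr3 at 1.39% and Plcb2 at 11.1%, while Pkd2l1 had 24.3%, the transcription factor Pou2f3 31.7%, the channel Calhm1 49.4% and the channel Trpm5 64.4%. The trace amine receptors, a further family of olfactory receptors, had 3 measured members, Taar5 at 44.7%, Taar6 at 51.4% and Taar4 at 77.9% over 16 positions, and all 3 lay between 20 and 80%, as did most odorant receptors.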

How the data were processed

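DNA was extracted from embryos at embryonic day 7.5 and made into reduced representation bisulfite libraries, per the labels' protocols. Trim Galore, Bismark, methylKit and the build mm10 are named, per the submitters' processing notes, with versions and settings not given in the sources used here. Per the file headers, the authors deposited raw counts of coverage, methylated and unmethylated calls per position and column, used without normalization. Of 2137826 rows, 2 repeated a position and were left out. The 10 columns carry numbers and 0 names match a single sample, so the planned exact permutation test of arsenic against control was not run.

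Gene spans came from a RefSeq table of GRCm38 and strands from the promoter table of GRCm38.p6. Of the positions inside autosomal promoter entries, 166443 of 166449 lay at a CG, as checked on the sequences. Levels are summed methylated calls over summed coverage within 1000 bp of the end with more positions, with at least 3 positions, and 95% Wilson intervals. The intervals cover counting error only and take calls of 1 read at neighbouring positions as independent, which makes them too narrow. Genes named by rule are the measured taste receptors, those under 20%, the 5 highest, the 5 with most positions, the highest and lowest of each described cluster and the 3 with the widest range among those with at least 10 positions. The genes and lists were chosen with earlier results of these data known. The calculation of levels was tested on simulated data. Alternatives changed the coverage minimum, window, number of positions, weighting, neighbouring gene ends and columns. Python 3.11.15, numpy 2.4.6, pandas 2.3.3, scipy 1.17.1 and matplotlib 3.10.9 were used.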

Additional observations from a re-analysis of the deposited data

Results flagged for a closer look

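By Dixon's criterion, 1 of the 10 columns stood apart in 4 of the 52 measures tried, and chance alone flags about 1 in 20. Olfr1459 had 60.6% in column 8, against 77.2 to 93.7% in the other columns. Vmn1r4 had 12.8% in column 9, against 0.166 to 1.33%. Vmn2r104 had 49.5% in column 2, against 60.8 to 69.0%. Vmn2r92 had 70.7% in column 4, against 27.7 to 49.7%. These are 4 different columns.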

How the results depend on the processing

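No paired analysis was possible because the columns carry no sample and no group. The median level of the receptor genes moved from 51.5% to 53.9% with at least 5 positions per gene and to 48.9% at the 5′ end. The summed level moved from 49.6% to 53.5% with at least 20 reads, 46.3% as a mean of positions, 53.0% without positions near other genes' ends and 52.4% inside genes. The Olfr median moved to 54.2% with at least 20 reads, the Vmn1r median to 55.9% with windows of 2000 bp and 57.3% with at least 5 positions, and the Vmn2r median to 33.8% with windows of 500 bp. The number of genes under 20% fell from 4 to 2 with at least 20 reads, where Olfr94 and Olfr95 have fewer than 3 positions left, and to 2 without positions near other genes' ends and to 2 inside genes. The 5′ end and the inside of genes were alternatives chosen after seeing the data. Leaving out each column gave medians of 51.0 to 51.7% for all receptor genes, 51.8 to 52.7% for Olfr, 47.4 to 49.5% for Vmn1r, 45.3 to 48.2% for Vmn2r and 47.5 to 49.5% for taste receptors, a summed level of 49.1 to 49.9%, and 4 genes under 20% each time. Of 689 alternative values of the 35 named genes, 671 moved by less than 1 SD over the columns. That count says little about robustness. Of the alternatives, 10 leave out 1 column each and can hardly shift a summed level that far. Changing the minimum number of positions leaves a gene's own level as it was. Tas1r1 was the gene that crossed 20%, at 61.4% without positions near other genes' ends and 26.6% inside the gene. Apart from the alternatives' own construction, the cause of these shifts was not tested. Most receptor genes were not measured, and 44 of the 96 rest on 3 to 5 positions, so their single levels are the least precise.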
